A study of Homo sapiens with 23 samples.

Results

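The sites described here are the H3K9me3 peaks of NCCITs that were found again in every other H3K9me3 library of the series, called shared sites in what follows. They were chosen by measured values, that is, by the H3K9me3 peak calls themselves. A peak of the NCCIT library without dCas9-KRAB was kept when a peak of each of the 4 SCi-NCCIT libraries overlapped it by 1 bp or more, when the region it formed with the peaks of all 5 lists (gaps of up to 1000 bp joined) was under 20 kb, and when it lay outside the ZNF genes of chromosome 19. Of 157136 NCCIT peaks, 78231 (49.8%) were met in all 4 SCi-NCCIT lists, and 70631 (44.9% of all) also passed the limits on region and position. They lay in 42646 of the 128383 merged regions, and 61.8% of these regions held 1 shared site. Of those met in all lists, 7194 lay in regions of 20 kb or more, 1721 lay in a ZNF gene of chromosome 19, and 1315 of them did both.

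NCCITs are a human embryonal carcinoma line, a cancer line that resembles pluripotent stem cells. The NCCITs without dCas9-KRAB gave 1 H3K9me3 library and no other library used here. SCi-NCCITs carried a doxycycline-inducible dCas9-KRAB on piggyBac and a pair of constitutive sgRNAs against SVA transposons. The paper states that these sgRNAs also target LTR5Hs elements. Clones were isolated at the dCas9-KRAB step, and the line with sgRNAs was then kept under drug selection. SCi-NCCITs were profiled without doxycycline (no dox) and after 72 hours in 2 µg/mL of it (dox). Each condition had 2 H3K9me3, 2 YY1, 1 OCT4 and 3 RNA-seq libraries. dCas9-KRAB recruits the machinery that deposits H3K9me3, so the SCi-NCCIT libraries differ from the NCCIT library in transgenes as well as in treatment. Cells given doxycycline without the sgRNAs or without dCas9-KRAB were not among the libraries analysed here, and no source says whether replicates came from separate cultures, so a p-value measures only the spread between these libraries.

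Of the 10 pluripotency and embryonal carcinoma markers, all were at 1 TPM (a transcript level scaled to length and library size) or more on average, among them POU5F1 at 206 TPM without and 183 TPM with doxycycline. In the comparison below 5 of the 10 fell with doxycycline, the most TDGF1, from 187 to 81.1 TPM (log2 fold change -1.13), and L1TD1, DNMT3B, NANOG and SALL4 less. Of 9 markers of other cell types, 3 collagen genes were at 1 TPM or more over the 6 libraries. The highest, COL3A1, was at 52.0 TPM without and 45.2 TPM with doxycycline, and its groups overlapped. AFP, CGA, SOX17, PTPRC and GATA4 were under 1 TPM, and KRT5 was listed at 0. PECAM1, a marker of endothelium planned beside these 9, gave no value and is not counted. The RNA-seq libraries held 14683468 (no dox 1) to 47862394 (dox 2) estimated counts on genes. The peak lists give no read counts, so the depth of the ChIP-seq libraries is unknown.

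H3K9me3 is the trimethylation of lysine 9 of histone H3. It is placed by SETDB1, SUV39H1 and related enzymes, is bound by HP1 proteins, and marks the compact chromatin of centromeric satellites and of many transposons. In pluripotent cells KRAB zinc finger proteins bind transposon sequence and bring TRIM28 and SETDB1 to it, and the same mark covers the zinc finger gene clusters and a small number of gene promoters.

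The sequences below show the kinds of DNA that carried strong sites. All are from GRCh37 (hg19), 5′ to 3′, and each was cut from the 300 bp around the summit of the NCCIT peak. In the first pair, the strongest shared sites on chromosomes 7 and 10, capitals mark each base that equals the base 1 repeat unit before it. The unit is 171 bases in chr7:61083391-61083690 (98.4% of bases equal) and 68 bases in chr10:135500554-135500853 (68.1% equal), both on the plus strand and both intergenic. Alpha satellite, the DNA of centromeres, is built of units of the former length, and beta satellite of units of the latter. These names come from general knowledge, since no repeat annotation was used here.
chromosome 7, unit of 171: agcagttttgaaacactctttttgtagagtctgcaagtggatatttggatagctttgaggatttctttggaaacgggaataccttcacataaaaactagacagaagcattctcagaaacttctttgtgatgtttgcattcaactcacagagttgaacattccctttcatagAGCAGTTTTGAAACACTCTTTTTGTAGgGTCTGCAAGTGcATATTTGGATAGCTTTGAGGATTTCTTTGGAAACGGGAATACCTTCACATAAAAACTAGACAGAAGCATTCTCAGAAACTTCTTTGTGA
chromosome 10, unit of 68: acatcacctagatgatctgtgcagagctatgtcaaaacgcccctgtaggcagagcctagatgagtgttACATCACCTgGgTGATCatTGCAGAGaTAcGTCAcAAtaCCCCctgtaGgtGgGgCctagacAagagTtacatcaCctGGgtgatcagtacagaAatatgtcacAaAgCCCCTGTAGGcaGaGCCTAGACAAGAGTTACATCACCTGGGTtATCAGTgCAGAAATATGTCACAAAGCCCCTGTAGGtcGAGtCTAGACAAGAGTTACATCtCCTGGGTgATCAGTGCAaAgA

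The summit window of the next site has no run of 30 bases in common with that of an NCCIT peak in any other region. Intergenic at chr15:85714095-85714394, on the plus strand, it held 2 copies of TGCCGC, the most found at such a site. This hexamer is the core of the motif of ZFP57, a KRAB zinc finger protein that keeps H3K9me3 at imprinted genes. Capitals mark it, and it was searched as TGCCGC and as GCGGCA.
chromosome 15: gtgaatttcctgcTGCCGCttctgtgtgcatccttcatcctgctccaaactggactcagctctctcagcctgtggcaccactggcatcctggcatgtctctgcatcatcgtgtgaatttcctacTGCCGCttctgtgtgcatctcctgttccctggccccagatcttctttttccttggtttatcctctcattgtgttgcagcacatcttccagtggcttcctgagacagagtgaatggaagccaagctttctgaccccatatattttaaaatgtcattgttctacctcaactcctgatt

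The fold enrichment of a peak is the ratio of its signal at the summit to the local background. Where several peaks of a list met a shared site, the highest was taken. At shared sites the median was 4.77 in NCCIT (interquartile range 4.0 to 5.87), 7.19 in no dox 1 (5.33 to 10.1), 6.94 in no dox 2 (5.28 to 9.0), 5.78 in dox 1 (4.54 to 7.88) and 6.33 in dox 2 (4.95 to 8.20). NCCIT was the lowest of the 5, and each dox library was below both no dox libraries. These values are a description without a test, since the mark in these libraries chose the sites. At 83.5% of the sites the value in no dox 1 was above that in NCCIT, and the share was 82.9% for no dox 2, 71.2% for dox 1 and 75.3% for dox 2. The NCCIT value is that of the site's own peak, so taking the highest peak can only raise the SCi-NCCIT values. The summits of the peaks taken lay 294 to 349 bp from the NCCIT summit in the median. Only 40.4 to 44.6% of them were within 250 bp of it. The lists as a whole differed less, with medians of 4.04 in NCCIT, 4.37 and 4.35 in no dox 1 and 2, and 4.77 and 4.40 in dox 1 and 2. Over the whole lists each dox median was thus above both no dox medians, the reverse of the order at the shared sites.

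**Figure D1:**
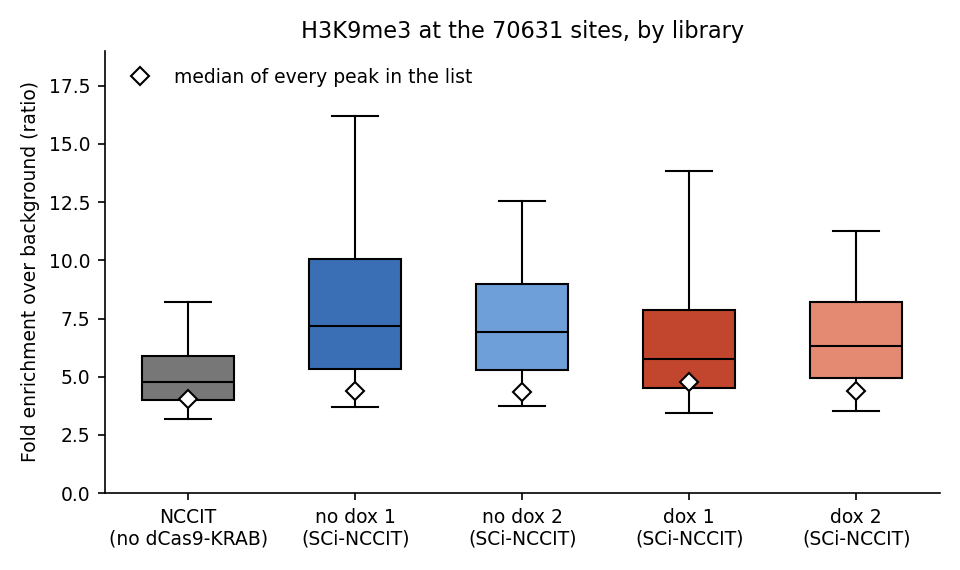
Fold enrichment of H3K9me3 (y axis, a ratio) at the 70631 shared sites in each of the 5 libraries (x axis). Boxes span the quartiles around the median and whiskers the 5th to the 95th percentile of sites, and diamonds are the medians of the whole lists. The medians of the 4 SCi-NCCIT libraries (5.78 to 7.19) lie above that of NCCIT (4.77), and the boxes overlap.

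The sites were not equally strong in all libraries. The ratio of the highest to the lowest of the 5 values was 1.93 in the median, and under 2 at 54.6% of the sites. Between dox and no dox, the median difference of the mean log2 values was -0.19. Both dox values were below both no dox values at 18827 sites (26.7%) and above both at 3337 (4.72%). The means of the conditions were within 2-fold of each other at 98.4% of the sites. More than 2-fold lower values with doxycycline were found at 941 sites and more than 2-fold higher values at 172. The same counts were not made for peaks outside the set, so whether they are particular to these sites is unknown. An effect of doxycycline at the sites was not tested.

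The strength of a site was more alike between libraries given the same replicate number here than between those of the same treatment. The labels number one of the H3K9me3 libraries of each condition as replicate 2, and the one without a number was called replicate 1, so the pairing of these numbers is not given by the labels. Across the 70631 sites, Spearman's rho was 0.68 between no dox 1 and dox 1 and 0.65 between no dox 2 and dox 2. It was 0.48 between the no dox libraries, 0.40 between the dox libraries and 0.34 to 0.38 between NCCIT and any of the 4. These correlations are a description across sites, which share libraries and are not replicates. What sets the replicates apart was not tested.

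The number of sites depended on dox 1, whose list was the shortest (123014 peaks, against 151492 to 181332 in the other SCi-NCCITs). NCCIT peaks were met in 57.4% of cases in dox 1 and in 75.6 to 79.4% in the other SCi-NCCITs. For 21904 NCCIT peaks dox 1 was the single list without a peak, against 2015 for no dox 1, 2094 for no dox 2 and 3767 for dox 2. Without dox 1 the number of shared sites was 91723 (58.4% of NCCIT peaks).

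Compared with the NCCIT peaks that were not met in every list, the shared sites were wider and stronger in NCCIT. Their median width was 860 bp, against 429 bp for the 63044 peaks met in 1 to 3 SCi-NCCIT lists and 354 bp for the 15861 peaks of the NCCIT list alone. The median fold enrichment in NCCIT was 3.75 and 3.62 in these groups, against 4.77. The 7600 peaks met in all lists but in wide regions or ZNF genes of chromosome 19 were 983.5 bp wide in the median, with a median fold enrichment of 5.05. Width and strength were thus part of what the overlap selected.

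Wider sites were stronger in all 5 libraries. In NCCIT the median fold enrichment was 3.75 at the 16710 sites under 500 bp and 8.44 at the 729 sites of 5000 bp or more. In no dox 1 the same medians were 6.18 and 13.6, and in dox 2 they were 5.59 and 10.5. The merged regions had a median width of 3355 bp, and 2528 of them (5.93%) were wider than 10 kb. Around the limit of 20 kb, the 466 sites in regions of 19 to 20 kb had a median fold enrichment of 4.77 and a median width of 885 bp. The 380 peaks in regions of 20 to 21 kb that the limit left out had 4.77 and 973 bp.

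**Figure D2:**
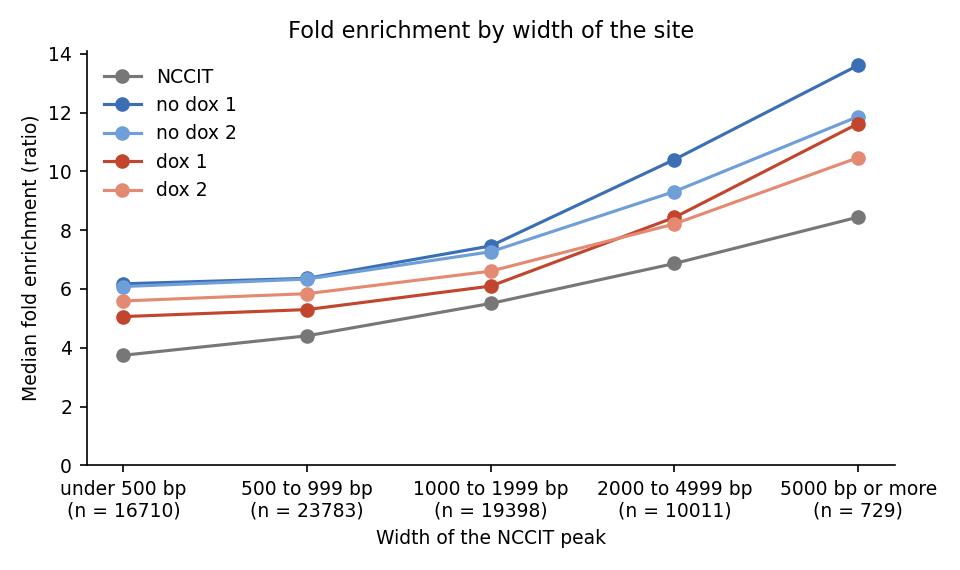
Median fold enrichment of H3K9me3 (y axis, a ratio) by width class of the NCCIT peak (x axis, with the number of shared sites), 1 line for each library. All 5 lines are highest in the class of 5000 bp or more, and NCCIT ends at 8.44.

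Of the 10 strongest regions 9 lay between genes, and several were built of tandem repeats. No regions known for excess reads were set aside here, so at such repeats excess mapping and enrichment cannot be told apart. Over the 376 shared sites with at least 10 in every library, 44.4% were intergenic, near the 42.8% of all shared sites. At a TSS were 10.9% of them, against 3.20% of the sites with a lowest value of 3 to 4. The median widths of these groups were 3838.5 and 583 bp, and a wider site meets a TSS more easily. The 10 merged regions with the highest lowest value over the 5 libraries held 2 regions each on chromosomes 5, 8 and 22 and 1 each on chromosomes 2, 7, 10 and 18. The first, chr8:46839611-46858880, had 47.4 in NCCIT, 113.9 and 45.6 in no dox 1 and 2, and 74.2 and 44.6 in dox 1 and 2. No gene lay within it, and the nearest TSS, of the pseudogene HSPA8P13, was 618479 bp away. The second, chr22:18883338-18884460, had 44.6, 53.2, 62.7, 57.3 and 43.1 in the same order and lay 1890 bp from the TSS of FAM230F. A run of 30 bases in its summit window was found in the summit windows of 920 regions, counting its own.

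On chromosome 5, 2 regions at chr5:49428565-49443179 and chr5:49409568-49412195 repeated with units of 170 and 171 bases, 76.2 and 78.3% of bases equal. Their values were 37.9 to 55.1 and 27.5 to 36.1 over the 5 libraries. The nearest TSS, of EMB, was 298215 and 328779 bp away. The region of the 171-base unit on chromosome 7 printed above had 27.3 in NCCIT and up to 42.5 in the SCi-NCCITs, and the second region on chromosome 8 (27.2 to 40.5) had a unit of 170 bases. On chromosome 18, chr18:104589-112540 was at the TSS of ROCK1P1, a pseudogene of the kinase ROCK1 at 1.03 TPM, and had 56.3 in NCCIT and 34.2 to 70.4 in the SCi-NCCITs. The site on chromosome 10 with the 68-base unit (26.7 to 60.8) lay 3520 bp from DUX4L15, a pseudogene of the germline transcription factor DUX4 that was listed at 0 TPM. The remaining regions were chr22:18717577-18718416 (33.4 to 63.0), 3305 bp from FAM230E, and chr2:90375986-90377275 (23.5 to 37.5).

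Repeat units were looked for in all summit windows, as lags of 20 to 200 bases at which at least 60% of bases were equal. Of the 376 shared sites with a value of at least 10 in every library, 351 had a window on an assembled chromosome without unknown bases, and 14.2% of these (50) had such a unit. The share was 1.49% among the 24853 sites with a lowest value of 3 to 4. Units within 2 bases of the 171 of the chromosome 7 site were found at 333 shared sites (0.47%), 0.82% of the peaks met in 1 to 3 lists, and 8.39% of the peaks that were met in all lists and left out as wide or in ZNF genes. The alpha satellite length was thus more frequent in what the rule left out.

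Shared sites were richer in G and C, in CpG and in repeated sequence than the NCCIT peaks that were not met in every list. The peaks met in every list but left out as wide or in ZNF genes had a median GC content of 41.0%, at least 10 CpGs in 5.51%, TGCCGC in 2.13% and a run in common with another region in 70.5%, so that in CpGs and repeats they lay near the shared sites and in GC content and TGCCGC below them. The median GC content of the 300 bp window was 43.0% at shared sites, 39.7% at peaks met in 1 to 3 lists and 38.7% at peaks of NCCIT alone. At least 10 CpGs were found in 5.59% of shared sites, against 3.18 and 1.99%. TGCCGC was found in 3.14% (2208 windows), against 2.33 and 1.54%, and in 2.61% of all NCCIT peaks. A run of 30 bases in common with the summit window of another region was found in 70.6%, against 61.4 and 54.8%. For 23046 shared sites (32.7%) such a run was shared with 100 or more regions, and 20679 (29.4%) had none. The fold enrichment differed little between these groups, with NCCIT medians of 4.77 and 4.64 and of 4.97 at sites that shared a run with 10 to 99 regions.

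Most shared sites lay in introns or between genes. By GENCODE v44lift37, 34671 (49.1%) were intronic, 30228 (42.8%) intergenic, 3113 (4.41%) overlapped an exon and 2619 (3.71%) came within 1 kb of a TSS. The TSS was that of a protein-coding gene for 326 (0.46%). The TSS of a gene was taken as the outermost 5′ end of its annotation, so starts of shorter transcripts were not considered. A site at this TSS need not lie at the start that the gene used in these cells. The median distance to the nearest TSS was 23791 bp, and 18749 sites (26.5%) were more than 50 kb away. The peaks met in 1 to 3 lists had 2.69% at a TSS and 2.86% in exons, and those left out as wide or in ZNF genes 7.24 and 13.5%. Sites at exons and TSSs were wider (medians 1211 and 1043 bp) than those in introns (819 bp). Their NCCIT medians of 5.18 and 5.05 were above the 4.77 of introns and of intergenic sites. A site joined the TSS or exon class by any overlap, so a wider site enters these classes more easily. These comparisons, and those between groups of peaks, were not matched for width.

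By chromosome, the density over the autosomes and X ran from 11.3 sites per Mb on chromosome 22 to 30.4 on chromosome 6, with 30.3 on chromosome 12 and 30.2 on chromosome 5. Of the NCCIT peaks of chromosome 19, 17.1% were shared sites after the ZNF genes there were set aside, against 37.3% on X and 52.6% on chromosome 17.

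A shared site overlapped 10994 of the 64485 annotated genes (17.0%) and 5884 of 20176 protein-coding genes (29.2%). Overlapped protein-coding genes were long, with a median of 103634 bp against 27194 bp for all protein-coding genes. A site came within 1 kb of the TSS of 2352 genes, of which 661 were processed pseudogenes, 629 lncRNAs and 307 protein-coding genes (1.52% of all protein-coding genes). The genes with the most sites were the lncRNAs ENSG00000248752 on chromosome 5 (92 sites in 1035386 bp) and ENSG00000231918 on chromosome 2 (89 in 1375317 bp). They were followed by DLG2, a scaffold protein of synapses (75 in 2173325 bp), DOCK3, a guanine nucleotide exchange factor of neurons (72 in 709272 bp), and WDPCP, a protein of ciliogenesis (70 in 708284 bp).

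Among gene families that this mark is known for, sites at the TSS were most frequent in the clustered protocadherins, the cell surface proteins that give neurons their identity. Of 54 genes, 15 (27.8%, against 3.65% of all genes) had a site at the TSS and 31 were overlapped. At 1 TPM or more were 2 of the 15 and 7 of all 54, so low RNA was common with or without a site. The site of PCDHGB5 had 6.58 in NCCIT, 15.5 and 6.45 in no dox 1 and 2, and 14.1 and 7.46 in dox 1 and 2. PCDHGB2 (6.48 in NCCIT), PCDHA7 (5.14) and PCDHGA9 (5.14) followed, and all 4 were under 0.5 TPM in the mean of either condition. The genes of a cluster lie side by side, and those of the alpha and gamma clusters share their last exons, so these counts are of neighbouring and partly overlapping genes.

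Of 862 olfactory receptor genes, 22 (2.55%, below the 3.65% of all genes) had a site at the TSS and 32 were overlapped. None of the 22 was at 1 TPM or more, and of the 861 quantified genes of the family only 3 were. The strongest sites in NCCIT were at OR13Z2P (8.85), OR2AP1 (8.81), OR2L2 (8.08) and OR2V2 (7.83). Of the 334 zinc finger genes outside chromosome 19, 13 had a site at the TSS and 137 (41.0%) were overlapped. Those with the strongest sites were the pseudogenes ZNF965P (9.18) and ZNF733P (5.87), both listed at 0 TPM in all 6 libraries, and the protein-coding genes ZNF280C (7.80) and ZNF239 (5.53). No HOX gene of 39 and no ribosomal protein gene of 81 had a site at the TSS, and 0 and 4 of them were overlapped.

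Of 42 imprinted genes, expressed from 1 parental copy, 18 were overlapped and 2 had a site at the TSS. MKRN3, a paternally expressed gene of the Prader-Willi region, carried a site of 1703 bp across its TSS at chr15:23809695-23811397. Its values were 9.25 in NCCIT, 15.8 and 10.9 in no dox 1 and 2, and 13.3 and 7.92 in dox 1 and 2. MKRN3 RNA was at 0.46, 0.16 and 0.13 TPM without and 0.08, 0.13 and 0.21 TPM with doxycycline, and the gene was too low to be tested. L3MBTL1, a chromatin reader that is paternally expressed, had a site of 6217 bp with 5.30 in NCCIT and 5.54 to 14.1 in the SCi-NCCITs. Its mean levels were 16.2 ± 1.24 TPM without and 15.3 ± 1.34 TPM with doxycycline (SD, n = 3).

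Of 26 genes that place, read or erase H3K9 methylation, 4 had a site within 1 kb of the TSS. All 26 were at 1 TPM or more, with or without such a site. The 4 were KDM3A and KDM3B, which remove H3K9 methyl groups, TASOR, a subunit of the HUSH complex, and ATF7IP, the partner of SETDB1. The strongest such site lay 153 bp from the TSS of KDM3A, 996 bp from that of KDM3B, 445 bp from that of TASOR and 799 bp from that of ATF7IP. The site beside KDM3A had 9.78 in NCCIT, 6.39 and 16.0 in no dox 1 and 2, and 5.72 and 8.28 in dox 1 and 2. Mean levels without doxycycline were 25.3 TPM for KDM3A, 13.6 for TASOR, 30.4 for KDM3B and 32.3 for ATF7IP. None of the 4 passed the test between dox and no dox (edgeR, adjusted p = 0.10 for ATF7IP, 0.12 for KDM3B, 0.63 for TASOR and 0.99 for KDM3A). Without no dox 1 ATF7IP passed it (adjusted p = 0.015), and without dox 3 KDM3B did (0.0073). Of 46 germline genes, 21 were overlapped and 2, TEX15 and HORMAD1, had a site at the TSS. Of the 10 pluripotency and embryonal carcinoma markers, 2 were overlapped and none had a site at the TSS.

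Protein-coding genes with a shared site at the TSS were expressed less often than other protein-coding genes. Of the 300 that were quantified, 142 (47.3%) had a mean of 1 TPM or more. The share was 69.9% of the 5652 genes with a site in the gene but not at the TSS, 61.2% of the 1666 genes with other NCCIT peaks only, and 62.8% of the 12231 genes without an NCCIT peak. In the 6 libraries the share for genes with a site at the TSS ran from 47.0 to 48.7%, and the lowest value of any of the other groups was 60.6%. The median levels were 0.62, 6.24, 3.30 and 5.67 TPM in this order. These shares are a description across genes with no test. Genes with another NCCIT peak at the TSS were not counted apart, so whether the lower share is particular to shared sites is unknown. The genes with a site at the TSS include protocadherin and olfactory receptor genes, families with low RNA here. Of the 107 genes whose TSS site was at 6 or more in NCCIT, 40.2% were at 1 TPM or more, and the shares were 51.6% of the 62 genes under 4, 48.7% at 4 to 5 and 54.7% at 5 to 6. Over all 1196 quantified genes with a site at the TSS, pseudogenes included, 14.9% were at 1 TPM or more.

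Between the conditions that share differed by less than the spread between libraries. Over the 1196 genes it was 14.9 ± 0.21% without and 14.8 ± 0.13% with doxycycline (SD, n = 3, exact permutation test, two-sided, p = 1.0, where 3 against 3 libraries cannot give a p under 0.10). The difference was -0.03 percentage points.

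**Figure D3:**
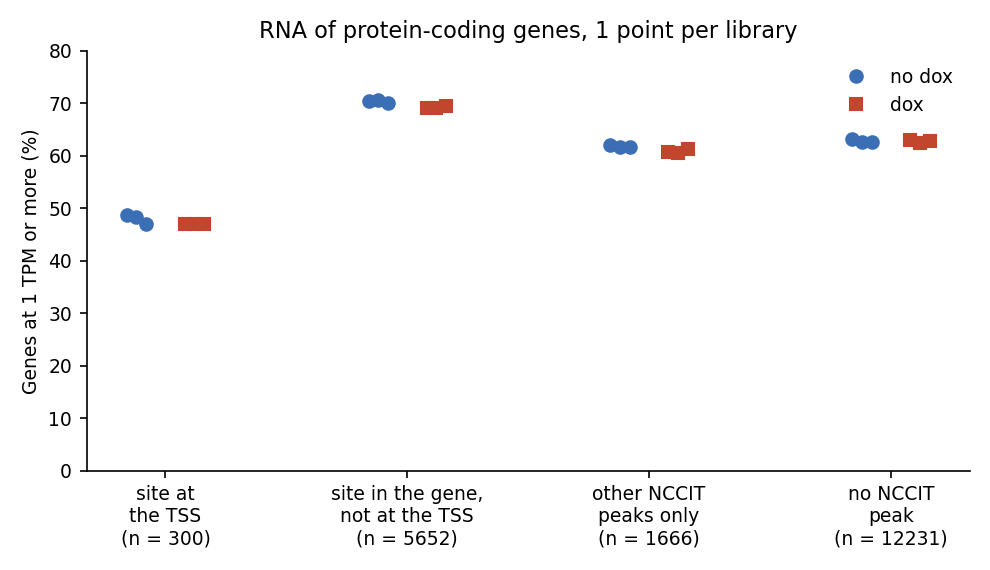
Share of quantified protein-coding genes at 1 TPM or more (y axis, %) in 4 groups of genes (x axis, with the number of genes). Each point is 1 RNA-seq library, circles without and squares with doxycycline, and the 6 points of genes with a shared site at the TSS lie between 47.0 and 48.7%.

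The most highly expressed gene with a site within 1 kb of its TSS was FXR1, an RNA-binding protein of the fragile X family. It was at 1213 ± 46.1 TPM without and 1162 ± 42.6 TPM with doxycycline (SD, n = 3), and the groups overlapped. Its site, chr3:180584331-180586146, had 4.96 in NCCIT, 5.50 and 5.72 in no dox 1 and 2, and 4.10 and 4.47 in dox 1 and 2. It covered the outermost annotated 5′ end of the gene. Whether the RNA of FXR1 and of the genes below starts at that end was not determined. SET, a histone chaperone and phosphatase inhibitor (445 TPM without doxycycline), had a site that ended 267 bp from its TSS, with 7.18 in NCCIT. For RPA2, a subunit of the single-strand DNA binding protein RPA (289 TPM), the distance was 425 bp, and for TRA2B, a splicing regulator (250 TPM), it was 405 bp. For HSD17B4, an enzyme of peroxisomal fatty acid oxidation (151 TPM), it was 787 bp. GARS1, the glycyl-tRNA synthetase, had its TSS under a site with 7.71 in NCCIT and 9.15 to 11.8 in the SCi-NCCITs. It was at 182 ± 8.69 TPM without doxycycline.

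The other genes among the 8 with the highest levels were pseudogenes. MTATP6P1, a copy of the mitochondrial ATP6 gene on chromosome 1, was at 794 TPM without doxycycline, and its reads cannot be told apart from those of the mitochondrial gene. ENSG00000249072, a processed pseudogene of 177 bp, ran from 35.6 to 715 TPM over the 6 libraries. Its level in dox 2 stood apart from the other 5, which were at 187 TPM or less.

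The RNA of dox and no dox cells was compared over all 16370 genes that passed a filter on low counts, with edgeR's quasi-likelihood test. Over all genes 17.5% were called at an adjusted p under 0.05, 8.97% as higher and 8.49% as lower with doxycycline. Of the 256 tested genes with a shared site at the TSS, 33 (12.9%) were called, 13 higher (5.08%) and 20 lower (7.81%). The other genes of the 2352 with such a site were not quantified or too low to be tested. The median log2 fold change of the 256 genes was -0.02, and over all genes it was -0.003. In this fit neither direction exceeded its share over all genes. The share that fell did exceed it with DESeq2, with at least 10 counts in every library, with a replicate block, with 250 bp or 5 kb on either side of the TSS, and when any library but no dox 2 was left out. Among protein-coding genes 9.64% of those with a site at the TSS fell, against 8.68% of all. In these bulk libraries fewer cells that express a gene and less RNA per cell cannot be told apart.

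Leaving out no dox 2 gave 19 calls among genes with a site at the TSS and leaving out dox 2 gave 20, while over all genes the calls were 1468 and 1396, against 2858 with all libraries.

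Among the called falls with a mean of at least 1 CPM (counts scaled to library size), the largest was ZNF75D, a zinc finger gene of X. It was at 22.9, 23.7 and 20.6 CPM without and 9.69, 10.7 and 10.5 CPM with doxycycline, and the groups did not overlap (log2 fold change -1.12, SE 0.08, edgeR, adjusted p = 3.7e-05). Its site lay 379 bp from the TSS and had 4.73 in NCCIT, 11.2 and 5.96 in no dox 1 and 2, and 9.20 and 2.99 in dox 1 and 2. GPR50, a melatonin-receptor-related protein, fell by 1.07 on the log2 scale (edgeR, adjusted p = 0.0069) from 1.97 to 2.66 CPM to at most 1.3 CPM. NRBP2, a pseudokinase, fell by 0.86 (edgeR, adjusted p = 2.8e-05) and its 3 dox libraries were at 24.7 to 26.7 CPM, against 45.6 to 48.4 CPM. HYDIN, a protein of motile cilia, fell by 0.71, CLDN4, a tight junction claudin, by 0.62, and the processed pseudogene ENSG00000250669 by 0.75 (edgeR, adjusted p = 0.022, 0.028 and 0.038). Each of these last 3 calls was lost when 1 of several libraries was left out, with adjusted p of up to 0.088 for HYDIN (without no dox 2), 0.12 for CLDN4 (without no dox 3) and 0.13 for ENSG00000250669 (without dox 2). With DESeq2 on all libraries HYDIN (0.051) and ENSG00000250669 (0.063) also missed the threshold.

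HORMAD1, which organises meiotic chromosome axes, was named from the germline list and lies under 1 CPM. It was at 0.41, 0.57 and 0.35 CPM without and 0.02, 0.02 and 0.11 CPM with doxycycline (log2 fold change -3.06, SE 0.56, edgeR, adjusted p = 0.0065). DESeq2 gave HORMAD1 no adjusted p, and the gene did not pass the filter of at least 10 counts in every library. Its site, which covered the TSS, had 3.98 in NCCIT, 5.64 and 4.48 in no dox 1 and 2, and 5.78 and 5.73 in dox 1 and 2. Both dox values were above both no dox values at this site, as at 4.72% of all shared sites. A link between the mark and the RNA was not tested. TEX15, the other germline gene, was at 0.78 ± 0.18 TPM without and 0.51 ± 0.10 TPM with doxycycline (SD, n = 3) and missed the threshold (edgeR, adjusted p = 0.055), which it passed with DESeq2 (0.049), with the other filters on low counts (0.035 and 0.046), with a replicate block (0.040) and without no dox 1 (0.042) or dox 3 (0.031). ZNF239, named from the zinc finger list, fell by 0.47 (edgeR, adjusted p = 0.0034).

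Of the called rises, the largest was that of MTATP6P1 (log2 fold change 0.90, SE 0.09, edgeR, adjusted p = 0.00029), from 283 to 328 CPM to 509 to 651 CPM, with the uncertainty on its reads given above. LRG1, a secreted glycoprotein, rose by 0.66 on the log2 scale, CERS6, a ceramide synthase, by 0.47, TMED1, a cargo protein of the early secretory pathway, by 0.45, and KIF5C, a kinesin, by 0.36. Their adjusted p (edgeR) ran from 0.0033 for KIF5C to 0.020 for LRG1. In these 4 genes the sites had 3.02 to 6.61 in NCCIT. GARS1 fell by 0.23 on the log2 scale (SE 0.05, edgeR, adjusted p = 0.015), a call lost without no dox 2, no dox 3 or dox 1 (adjusted p of 0.052 to 0.065). That of LRG1 was lost without no dox 3, dox 1 or dox 2 (0.071 to 0.086), and that of CERS6 without dox 2 (0.055). FXR1, SET, RPA2, TRA2B and HSD17B4 had log2 fold changes of -0.12 to 0.13 that missed the threshold.

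Genes that a shared site overlapped anywhere fell more often than they rose. Of 5181 tested, 863 (16.7%) were called, close to the 17.5% of all genes. Of these, 300 were higher (5.79%, against 8.97% of all genes) and 563 lower (10.9%, against 8.49%). The median log2 fold change was -0.05, and for the 9689 genes without an NCCIT peak it was 0.04. For the 1413 genes with other NCCIT peaks only it was -0.06, so the shift was not larger at shared sites.

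The overlapped genes were longer than the others, and over all protein-coding genes the calls went with length. Among protein-coding genes under 10 kb, 15.9% of 2841 were called higher and 5.28% lower, and among those of 200 kb or more, 4.90% of 1285 were called higher and 12.1% lower. Within the 3 middle classes of length, the shares that fell were close between overlapped and other genes. From 50 to 100 kb, 11.1% of 1304 overlapped and 10.8% of 1384 other genes fell, and 6.6 and 6.21% rose. From 10 to 50 kb the falls were 7.54 and 7.53%, and the rises 7.65 and 10.2%. From 100 to 200 kb the falls were 12.3 and 11.4%, and the rises 4.88 and 7.05%. The classes of under 10 kb and of 200 kb or more held few genes of one kind (40 overlapped and 73 not overlapped). These shares are a description with no test.

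**Figure D4:**
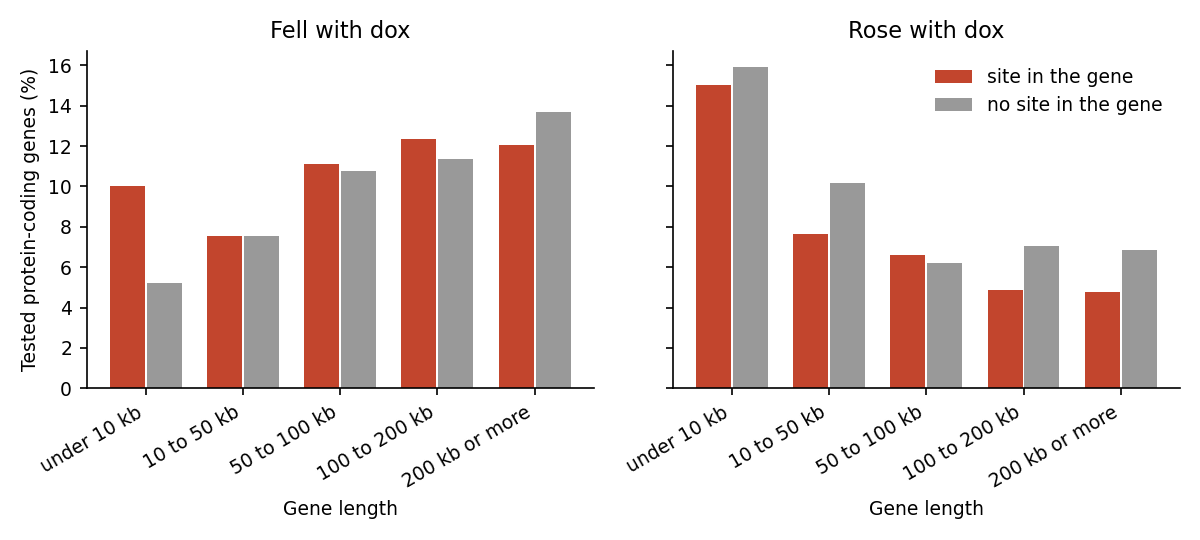
Share of tested protein-coding genes (y axis, %) called lower (left) or higher (right) with doxycycline by class of gene length (x axis), for genes with a shared site in the gene and genes without. In the class of 50 to 100 kb the shares lower are 11.1 and 10.8%, and the shares higher 6.6 and 6.21%.

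The counts over all overlapped genes moved with single libraries. They were 442 without no dox 2, 522 without no dox 3, 532 without dox 1 and 417 without dox 2, and in each of these the falls outnumbered the rises. The share of overlapped genes called was 8.44, 9.98, 10.2 and 7.96% in this order, and that of all genes was 8.82, 10.5, 10.5 and 8.39%. Among the 5 genes with the most sites, DOCK3 fell by 0.25 on the log2 scale (edgeR, adjusted p = 0.022), and its 3 dox libraries, at 40.6 to 45.5 CPM, lay below its 3 no dox libraries. The call of DOCK3 was lost without no dox 2, no dox 3, dox 1 or dox 2 (adjusted p of 0.060 to 0.095). DLG2 (0.44, adjusted p = 0.074) and WDPCP (-0.19, adjusted p = 0.16) missed the threshold in edgeR, and the lncRNAs were not quantified. Of 137 overlapped zinc finger genes outside chromosome 19, 125 were tested, 19 fell (15.2%, against 8.49% of all genes) and 0 rose (against 8.97%), and over the whole list of 334 genes 35 fell (12.2%) and 4 rose of 288 tested.

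In the other lists the calls were counted over all tested members, with or without a site. Of 47 tested protocadherin genes 1 fell and 0 rose, and of 48 olfactory receptor genes none was called. Of 25 germline genes 4 fell and 0 rose, and of 29 imprinted genes 3 fell and 4 rose. Of the 26 genes of H3K9 methylation 5 fell, 1 of them among the 10 that a site overlapped, and 0 rose. Of 10 pluripotency and embryonal carcinoma markers 5 fell, and of those the site-bearing gene was L1TD1, an RNA-binding protein of pluripotent cells. Of 16 HOX genes 1 rose, and of 80 ribosomal protein genes 2 rose and 1 fell. These counts are read against the 8.97% and 8.49% of all genes and have no test.

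YY1, a zinc finger factor that joins promoters and enhancers, and OCT4 (POU5F1), a factor of pluripotency, had peaks at a minority of the shared sites. A YY1 peak met 4.11 and 6.39% of the sites in no dox 1 and 2, and 6.25 and 10.0% in dox 1 and 2. The means were 5.25 ± 1.61% without and 8.14 ± 2.67% with doxycycline (SD, n = 2, exact permutation test, two-sided, p = 0.67, where 2 against 2 libraries cannot give a p under 0.33), and the groups overlapped. The test does not pair the libraries, and within each replicate number given here the dox library was the higher. The YY1 lists held 56370 and 76098 peaks without and 82005 and 115673 with doxycycline, and the shortest and longest lists gave the lowest and highest shares. With the 56370 strongest YY1 peaks of each library the difference of 2.90 percentage points became 0.48.

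Per Mb of sequence, the shared sites held 34.2 and 55.2 YY1 peaks in no dox 1 and 2 and 52.5 and 88.3 in dox 1 and 2. The same lists had 19.7, 26.6, 28.7 and 40.5 peaks per Mb of the called bases of the assembly, and 28.9, 44.8, 43.4 and 69.5 at NCCIT peaks met in 1 to 3 lists. At the NCCIT peaks of that list alone they had 20.9, 31.6, 33.3 and 53.1. In each of the 4 libraries the shared sites had the highest of these densities. A YY1 peak was counted wherever it touched a site. In all 4 libraries 2028 shared sites carried a YY1 peak, 106 of them at a TSS, and their median width was 1386.5 bp. An OCT4 peak met 3.39% of the sites without and 1.67% with doxycycline, from lists of 50775 and 23352 peaks, with 1 library in each condition and no replicate error. The 913 sites with OCT4 in both had a median fold enrichment of H3K9me3 of 6.51 in NCCIT and a median width of 1940 bp. Per Mb, shared sites held 29.4 OCT4 peaks without and 15.2 with doxycycline. Peaks met in 1 to 3 lists held fewer (20.2 and 9.47). Those met in all lists but left out as wide or in ZNF genes held more (33.1 and 30.9).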

How the data were processed

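ChIP-seq measured H3K9me3 in NCCITs and SCi-NCCITs, and YY1 and OCT4 in SCi-NCCITs, where RNA was measured by RNA-seq. For ChIP-seq the authors trimmed reads with TrimGalore!, aligned them to hg19 with BWA MEM, discarded alignments with a mapping quality of 10 or less as well as duplicates, and set a 5% FDR for the peaks of each sample. Each deposited peak has a fold enrichment (a ratio of the summit to local background) and a p and q as −log10. For RNA-seq the authors ran kallisto, and the deposited files give estimated counts and TPM per transcript. The kallisto annotation is not given in the sources used here.

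Peaks were overlapped in Python 3.11.15 (numpy 2.4.6, pandas 2.3.3, matplotlib 3.10.9). Estimated counts, rounded, and TPM were summed over the genes of GENCODE v44lift37, and 88.2% of 188753 transcripts, with 95.9% of counts, matched. Dox and no dox were compared with edgeR 4.0.16 (R 4.3.3, limma 3.58.1, quasi-likelihood test, TMM, Benjamini-Hochberg over 16370 genes past the filter on low counts), and with DESeq2 1.42.0 as an alternative. A call is an adjusted p under 0.05. The edgeR fit and the overlap and merging of intervals were tested on simulated data, and the other steps were not.

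The members of the set, the gene lists and the tests were chosen with earlier results of these data known. Genes named were, among tested genes with a site within 1 kb of the TSS, the 8 with the highest mean TPM and the 6 largest called rises and falls with a mean of at least 1 CPM. The 5 genes with the most sites, up to 4 genes of each list by the NCCIT fold enrichment of the TSS site, and the 10 strongest regions were also named. Of these, 1 called rise, and runs of sequence shared between sites, are not reported here. Alternatives changed the overlap, peak, TSS, expression and count thresholds, the scaling, the gene types and the libraries. The 16 sample columns of a YY1 HiChIP table could not be mapped to samples and were not used. Same-numbered RNA-seq replicates had deviations that correlated at 0.13, 0.08 and -0.0009, so the numbers were not taken to pair samples. The deposited peak lists hold no counts, so depth and its error are unknown there.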

Additional observations from a re-analysis of the deposited data

How the results depend on the processing

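The number of shared sites was 32137 with peaks of a −log10 q of at least 5, against 70631, and 48743 to 76510 under the other limits on overlap and region. It ran from 72933 to 91723 with 1 SCi-NCCIT library left out. Called genes that a site overlapped numbered 863, and 852 to 894 with DESeq2, its size factors, other filters on low counts or at least 50% of a peak inside the gene, and 840 were protein-coding. There were 33 with sites at the TSS alone, and 417 to 1005 with 1 library left out, where fewer samples enter the fit. With the replicate block the count was 1012, and 39 in place of 33 at the TSS. The latter count was 14 with 250 bp on either side of the TSS and 233 with 5 kb, as fewer or more genes then count, and 19 to 49 with 1 library left out. The difference in the share of TSS genes at 1 TPM or more (-0.03 percentage points) was -1.0 for protein-coding genes, -0.42 at 10 TPM or more and also with 5 kb on either side of the TSS (exact permutation p = 0.10 in both, the smallest possible), 0.22 with 250 bp, and -0.139 to 0.0697 with 1 library left out. The cause was not tested. The YY1 difference was 0.48 to 2.53 percentage points under 4 alternatives and 1.01 to 4.78 with 1 library left out. Alternatives for protein-coding genes, single libraries in the TPM share and sites under 1000 bp were chosen after seeing the data.

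Of 37 named genes in the fit, 16 were called. All 16 kept their direction under the alternatives run, and 7 lost the call under at least 1. With 1 library left out, log2 fold changes that turned sign, none of them called with all libraries, ran from -0.0233 to 0.0230 for RPA2, -1.01 to 1.85 for ENSG00000249072, -1.29 to 0.0573 for PCDHA7, -0.67 to 0.56 for OR2V2, -0.0493 to 0.00592 for L3MBTL1 and -0.0593 to 0.0486 for KDM3A. Low counts limit OR2V2 and PCDHA7, both under 1 CPM, and the unknown depth of the peak lists limits each comparison of the mark between libraries.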
